A study of Mus musculus with 4 samples.

Results

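The 10 genes described here are the class Ib genes of the mouse major histocompatibility complex (MHC) listed for the H2-Q, H2-T and H2-M regions, namely H2-Q1, H2-Q2, H2-Q4, H2-Q5, H2-Q6, H2-Q7, H2-Q10, H2-T22, H2-T23 and H2-M3. They were taken by symbol from the 55421 genes counted in each library, and 8 of them are among the 14492 genes that reached 1 CPM (read pairs counted per gene, scaled to a common library size) in at least 2 libraries. RNA sequencing was done on whole uteri of pregnant mice at E18.5, from 2 C57BL/6J mice (WT) and 2 mice of the strain B6.Cg-H2b3/FlaCmwJ (B6.K1, Qa-2-), with 1 library per uterus. Qa-2- mice carry a spontaneous recombinant MHC haplotype in a C57BL/6 background and no transgene, and neither group received a treatment. They came from another supplier than the WT mice, so that a Qa-2 gene, the rest of the haplotype and the source of the animals cannot be told apart. Levels are given as CPM on library sizes scaled by the trimmed mean of M-values (TMM), and fold changes as WT over Qa-2-.

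MHC class I molecules are membrane heavy chains that pair with the light chain beta-2 microglobulin (B2m) and mostly hold a peptide loaded in the endoplasmic reticulum. The classical (class Ia) heavy chains H2-K and H2-D show many different peptides to CD8 T cells, whereas class Ib molecules are far less polymorphic and often have a narrow ligand or receptor. In C57BL/6 mice the Qa-2 antigen, a lipid-anchored class Ib molecule, is encoded by H2-Q6 to H2-Q9. H2-T23 encodes Qa-1, which presents leader peptides of other class I molecules to the CD94/NKG2 receptors of natural killer cells, H2-T22 is bound by gamma delta T cells, and H2-M3 presents N-formylated peptides. H2-Q10 encodes a secreted molecule made mainly in liver. No gene counted here carried the symbol H2-Q8 or H2-Q9, so that these were not analysed. Whether their reads were counted under H2-Q6 or H2-Q7 was not tested.

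All 10 genes lie on chromosome 17 (GRCm38). The H2-Q genes are in tandem on the plus strand, with H2-Q1 at chr17:35320405-35325099, H2-Q2 at chr17:35342242-35346762, H2-Q4 at chr17:35379617-35385290, H2-Q5 at chr17:35394126-35397800, H2-Q6 at chr17:35424850-35430055, H2-Q7 at chr17:35439155-35443773 and H2-Q10 at chr17:35470089-35474563. H2-T23 (chr17:36029773-36032855) and H2-T22 (chr17:36037128-36042747) follow on the minus strand, and H2-M3 (chr17:37270220-37274484) on the plus strand. GENCODE M21 annotates H2-Q5 as a polymorphic pseudogene and the other 9 as protein coding.

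The promoters of 4 genes are printed from the RefSeq table of GRCm38.p6, from 250 bases before to 50 bases after the start site, 5′ to 3′ on the strand of the gene. H2-Q6 and H2-Q7 are shown because they encode Qa-2, and H2-Q4 and H2-T23 because they were counted in both groups. Capitals mark matches to 5 motifs searched on both strands.
H2-Q6, chr17:35424600-35424899, plus strand: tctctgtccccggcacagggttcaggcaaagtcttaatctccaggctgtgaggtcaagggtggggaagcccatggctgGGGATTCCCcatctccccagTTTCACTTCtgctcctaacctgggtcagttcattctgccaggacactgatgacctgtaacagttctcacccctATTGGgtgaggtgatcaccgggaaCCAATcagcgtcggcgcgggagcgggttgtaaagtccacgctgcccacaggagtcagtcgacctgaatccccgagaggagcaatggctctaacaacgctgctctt
H2-Q7, chr17:35438905-35439204, plus strand: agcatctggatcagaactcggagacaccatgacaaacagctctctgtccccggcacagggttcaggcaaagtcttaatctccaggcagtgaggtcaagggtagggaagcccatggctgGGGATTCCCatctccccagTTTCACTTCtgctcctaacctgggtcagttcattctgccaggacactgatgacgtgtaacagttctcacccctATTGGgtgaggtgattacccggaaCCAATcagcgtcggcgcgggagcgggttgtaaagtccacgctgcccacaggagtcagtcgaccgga
H2-Q4, chr17:35379367-35379666, plus strand: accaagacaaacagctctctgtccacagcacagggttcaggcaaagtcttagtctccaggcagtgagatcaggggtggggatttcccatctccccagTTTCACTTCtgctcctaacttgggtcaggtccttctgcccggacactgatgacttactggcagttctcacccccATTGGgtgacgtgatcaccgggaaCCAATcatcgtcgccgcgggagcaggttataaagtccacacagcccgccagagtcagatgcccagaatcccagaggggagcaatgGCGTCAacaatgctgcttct
H2-T23, chr17:36032652-36032951, minus strand: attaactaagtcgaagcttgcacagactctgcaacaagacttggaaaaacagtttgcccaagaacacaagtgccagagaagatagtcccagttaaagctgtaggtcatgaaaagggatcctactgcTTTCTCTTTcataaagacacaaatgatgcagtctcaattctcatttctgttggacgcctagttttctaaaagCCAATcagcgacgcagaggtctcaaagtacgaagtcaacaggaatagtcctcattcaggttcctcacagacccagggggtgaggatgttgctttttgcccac

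The table held promoters of 8 of the 10 genes, without H2-Q1 and H2-Q5. The best local alignment of the H2-Q6 and H2-Q7 promoters had 254 identical bases in 261 columns (97.3%), against 245 in 298 (82.2%) for H2-Q4 and H2-Q6. The interferon-response motif of class I promoters, TTTCACTTC (reverse GAAGTGAAA), was in H2-Q4, H2-Q6, H2-Q7, H2-Q10 and H2-M3 and in 0.505% of 32851 promoters. It was searched after the sequences had been seen. The general interferon-response motif TTTCNNTTT (reverse AAANNGAAA) was in H2-T22 and H2-T23 and in 10.6% of promoters, and the kappa B motif GGGATTCCC (reverse GGGAATCCC) was in H2-Q6 and H2-Q7 and in 0.353%. The CCAAT box (reverse ATTGG) was in 7 of the 8, all but H2-Q10, and in 37.4% of promoters, and the X2-type motif TGACGC (reverse GCGTCA) was in H2-Q4, after the start site, and in H2-M3 and in 7.40%. No matches overlapped within these 8 promoters. Thus the promoters of H2-Q6 and H2-Q7 hold the same motifs, and a match is a description of these letters only. The reference is the C57BL/6J sequence, and the sequence of the Qa-2- strain was not analysed here.

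Several of the class Ib genes share sequence, which bears on their counts. Pairs that mapped to several positions or several genes had not been counted, so that sequence shared exactly between genes is lost. Of all stretches of 100 bases in the transcripts of a gene, 14.0% for H2-Q5, 13.0% for H2-Q6 and 11.98% for H2-Q7 also occurred in a transcript of another gene. The share was 8.86% for H2-T22, 8.05% for H2-Q1, 8.01% for H2-Q10, 5.09% for H2-Q2, 3.15% for H2-T23, 2.27% for H2-Q4 and 0 for H2-M3. H2-Q6 shared 8.36% of its stretches with H2-Q7, and H2-Q5 shared 11.4% with H2-Q7. The counts of these genes are thus too low by an unknown amount, and the assignment of near-identical pairs was not tested. H2-Q7 shared 5.56% with H2-Q10, H2-Q2 shared 5.09% with H2-Q1, and H2-T22 shared 6.92% with H2-T10, another class Ib gene. Most of each gene was thus distinct at 100 bases, the length of 1 read, although reads of other alleles or with mismatches were not modelled. H2-Q8 and H2-Q9 were not part of this comparison.

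**Figure D1:**
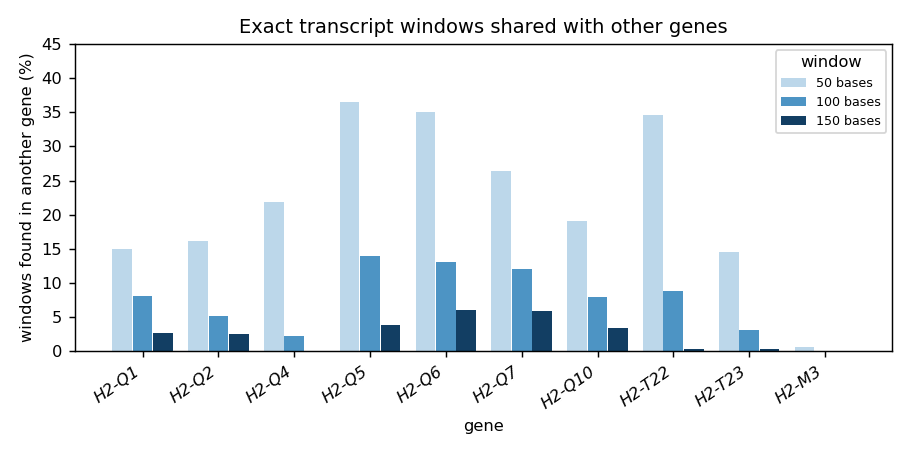
Share (%) of the exact stretches of 50, 100 or 150 bases in each class Ib gene's transcripts that also occur in transcripts of another gene (x axis, genes). At 100 bases the bars run from 0 for H2-M3 to 14.0% for H2-Q5, and longer stretches are shared less.

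Total counts were between 33286390 and 41041299 per library, and 3 counts corresponded to between 0.0747 and 0.0858 CPM. WT replicate 1 stood apart in class I genes. Its CPM was 2.71 times that of WT replicate 2 for H2-K1, 2.54 times for H2-D1 and 2.23 times for B2m, whereas 4.73% of all genes kept had a ratio of 2 or more. All 10 uterine markers passed the filter, with summed levels of 17126 and 27692 CPM in WT and 16555 and 9753 CPM in Qa-2-. Both WT libraries were above both Qa-2- libraries for 5 of them and below for 2. Over all genes kept these shares were 25.4% and 24.5%. The log2 fold change was 1.22 for Des, 0.91 for Acta2, 0.90 for Cnn1 and 0.56 for Myh11, genes of muscle. It was 0.85 for Pecam1, a gene of endothelium, and -0.85 for Krt8, a gene of epithelium. For Hoxa10, Hoxa11, Pgr and Esr1 it was 0.56, 0.33, 0.037 and -0.60. Some of these sizes are near those given for H2-Q4, H2-T22, H2-T23 and H2-M3 further on, and others are smaller or of the other sign. The summed level of 13 leukocyte markers was 232 and 367 CPM in WT and 297 and 214 CPM in Qa-2-; both WT libraries were above both Qa-2- libraries for 3 of these genes and below them for 4, and none was at 0 in all libraries. The summed level of 11 yolk sac, fetal liver and placenta markers was 8.17 and 70.1 CPM in WT and 521 and 25.6 CPM in Qa-2-, with Hbb-y at 0 throughout and no gene separating the groups. WT replicate 1, the highest library for most class Ib genes, was the second for the uterine sum, the third for the leukocyte sum and the lowest for the fetal and placental sum. The part of these cells in the differences was not tested.

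The genes fall into 3 patterns. H2-Q2, H2-Q5, H2-Q6 and H2-Q7 were counted in both WT uteri and were at or near 0 in both Qa-2- uteri. H2-Q4, H2-T22, H2-T23 and H2-M3 were counted in all 4 uteri at about 2 times the mean level in WT. H2-Q1 and H2-Q10 were under the filter, and H2-Q1 was the 1 gene with more counts in Qa-2- uteri. Of the 8 genes tested, 0 had an adjusted p under 0.05 with edgeR's quasi-likelihood test and Benjamini-Hochberg adjustment, and 8 had an unadjusted p under 0.05 with the higher level in WT, against 8.09% of all genes kept (1172 of 14492). None had an unadjusted p under 0.05 with the higher level in Qa-2-, against 7.09% of all genes. DESeq2 called 6 of them, all with more RNA in WT, against 2.79% of all genes in this direction and 2.04% in the other. Without a filter on low counts edgeR called 4 of the 10, again all with more RNA in WT, against 0.166% of 28242 genes in this direction and 0.0496% in the other. These counts are no support for a difference of the group as a whole, because H2-Q2, H2-Q5, H2-Q6 and H2-Q7 passed the filter only through their WT libraries and so had to differ. The smallest adjusted p of any gene was 0.170, and for 1 gene in 2 against 2 libraries the smallest two-sided p of an exact permutation test is 0.333.

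**Figure D2:**
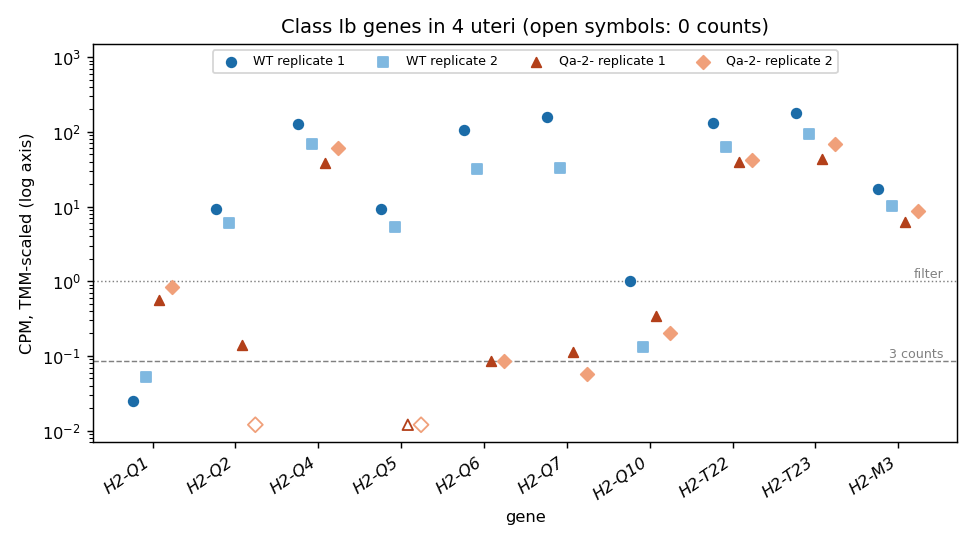
CPM (log axis, TMM-scaled) of the 10 class Ib genes in the 4 uteri, with open symbols at the bottom for 0 counts, a dotted line at the filter of 1 CPM and a dashed line at 3 counts (0.0858 CPM, the highest of the 4 libraries). H2-Q6 lies at 104.7 and 31.6 CPM in WT and at 0.0845 and 0.0858 CPM in Qa-2-, whereas H2-T23 lies between 43.2 and 179.7 CPM in all 4 uteri.

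The Qa-2 genes themselves came first, since they check the labels. H2-Q6 had 4204 and 1192 counts in the WT uteri and 3 and 3 in the Qa-2- uteri. H2-Q7 had 6318 and 1251 counts in WT and 4 and 2 in Qa-2-. Both Qa-2- uteri were thus at or near the level of 3 counts, and the groups did not overlap, as for 25.4% of all genes kept with the higher level in WT. The mean level of H2-Q6 was 68.2 ± 51.7 CPM (SD, n = 2) in WT and 0.0851 ± 0.00088 CPM for Qa-2-, and that of H2-Q7 was 95.3 ± 87.8 and 0.0849 ± 0.0393 CPM. The log2 fold change was 9.59 (SE 0.91) for H2-Q6 and 10.07 (SE 1.17) for H2-Q7, each with an adjusted p of 0.228 in edgeR.

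Because H2-Q6 and H2-Q7 share sequence, their counts were also added. Adding does not restore pairs that were not counted. The sum was 262 and 64.8 CPM in the WT uteri and 0.197 and 0.143 CPM in the Qa-2- uteri. Over the libraries of each group together, 12965 counts in WT stood against 12 in Qa-2-, a ratio of 978 (95% exact interval 560 to 1893, for counting error only). Its log2 fold change was 9.88 (SE 1.01, edgeR adjusted p = 0.232). Without WT replicate 1 it was 8.52 and without WT replicate 2 it was 10.56, so that the size of the difference moved with the WT library used, not its direction. DESeq2 gave 9.90 with an adjusted p of 6.4e-40.

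Outside the Qa-2 genes, the neighbours H2-Q5 and H2-Q2 showed the same contrast at lower levels. H2-Q5 had 367 and 198 counts in WT and 0 in either Qa-2- uterus. Set against 3 counts per library, its mean level was at least 84.5-fold higher in WT. A fitted log2 fold change of 11.06 (SE 0.91, edgeR adjusted p = 0.228) depends on the prior count and is no bound. H2-Q2 had 367 and 225 counts in WT and 5 and 0 in Qa-2-, a ratio over the group totals of 107 (95% exact interval 45.7 to 331, again for counting error only). Its log2 fold change was 6.67 (SE 0.89, edgeR adjusted p = 0.244), and it lay between 5.71 and 11.15 when each library was left out in turn. Together the 4 genes made up 280 and 76.0 CPM in WT and 0.338 and 0.143 CPM in Qa-2-. Reads of an allele that does not match the C57BL/6J reference, a missing gene and a gene with less RNA would give counts that look alike. The counts alone cannot tell these apart. For the Qa-2 genes, the authors describe B6.K1 as a model from strains in which these genes are missing. H2-Q2 and H2-Q5 are not among the genes that encode Qa-2. In whole tissue, fewer cells of a type and less RNA per cell cannot be told apart either.

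H2-Q4 lies between H2-Q2 and H2-Q5 on the chromosome but did not share their pattern. It had 5130 and 2577 counts in WT and 1346 and 2114 in Qa-2-, which is 128 and 68.3 CPM against 37.9 and 60.4 CPM. Both WT uteri were above both Qa-2- uteri, as for 25.4% of all genes kept, and by little for WT replicate 2 and Qa-2- replicate 2. The log2 fold change was 0.996 (SE 0.38, edgeR adjusted p = 0.319) and was 0.45 without WT replicate 1. The antisense gene Gm11131 overlaps 19.1% of the exon bases of H2-Q4 on the other strand and had 122 and 90 counts in WT and 18 and 28 in Qa-2-. The counting was strand-specific, and the share of misassigned reads was not tested.

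H2-Q1 and H2-Q10, the outer genes of the row, were barely counted. H2-Q1 had 1 and 2 counts in WT and 20 and 29 in Qa-2-, which is 0.0249 and 0.0530 CPM against 0.563 and 0.829 CPM. Both Qa-2- uteri were above both WT uteri, as for 24.5% of all genes kept. Over the group totals it was 18.0 times higher in Qa-2- (95% exact interval 5.82 to 90.5, for counting error only and not the spread between mice), the opposite direction to its neighbour H2-Q2, with which it shares sequence. When genes with low counts were kept its log2 fold change was -4.05 with an adjusted p of 0.125 in edgeR. H2-Q10 had 41 and 5 counts in WT and 12 and 7 in Qa-2-, and the groups overlapped, with the highest and the lowest value both in WT. Its log2 fold change without the filter was 1.12 (edgeR adjusted p = 0.775).

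Both H2-T genes were counted in every uterus. H2-T23 had 179.7 and 93.8 CPM in WT and 43.2 and 68.7 CPM in Qa-2-, with means of 136.8 ± 60.7 and 56.0 ± 18.0 CPM (SD, n = 2). H2-T22 had 131.0 and 62.1 CPM in WT and 39.5 and 42.1 CPM in Qa-2-, with means of 96.5 ± 48.7 and 40.8 ± 1.83 CPM. For either gene both WT uteri were above both Qa-2- uteri, as for 25.4% of all genes kept. The gap between the groups was smaller than that between the WT uteri. The log2 fold change was 1.29 for H2-T23 (SE 0.39, edgeR adjusted p = 0.281) and 1.24 for H2-T22 (SE 0.37, edgeR adjusted p = 0.280). Without WT replicate 1 these were 0.72 and 0.58. DESeq2 called both genes. The antisense gene A930015D03Rik overlaps 29.4% of the exon bases of H2-T22 and moved the other way, with 23 and 16 counts in WT and 90 and 117 in Qa-2-.

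H2-M3, which shared no stretch of 100 bases with another gene, had 17.3 and 10.3 CPM in WT and 6.14 and 8.63 CPM in Qa-2-. Its mean level was 13.8 ± 4.95 CPM (SD, n = 2) for WT, compared with 7.39 ± 1.76 CPM for Qa-2-. The WT uteri were again both above, as for 25.4% of all genes kept. The log2 fold change was 0.90 (SE 0.34, edgeR adjusted p = 0.320) and was 0.45 without WT replicate 1.

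Levels of different genes were compared as CPM per kb of exon. In WT uteri the order was H2-T23 (47.3), H2-Q4 (37.8), H2-Q6 (32.7), H2-T22 (28.3), H2-Q7 (22.3) and H2-M3 (9.59), and each of these overlapped the next over the 2 uteri. H2-Q5 (4.52) and H2-Q2 (3.46) came next and overlapped each other, and H2-Q10 (0.133) and H2-Q1 (0.0136) came last. In Qa-2- uteri H2-T23 (19.4) and H2-Q4 (18.9) led and overlapped, followed without overlap by H2-T22 (11.9) and H2-M3 (5.14). H2-Q1 (0.243) was then the highest of the other 6, above H2-Q10 (0.0619), H2-Q6 (0.0408), H2-Q2 (0.0323), H2-Q7 (0.0199) and H2-Q5 (0). H2-T23 was the first gene in each of the 4 libraries.

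On the chromosome, the 4 genes near 0 in Qa-2- uteri span 101.5 kb from the start of H2-Q2 to the end of H2-Q7, with H2-Q4 among them. Within 2.5 Mb on either side of the start of H2-Q7, 142 genes passed the filter, and 4 of them had a log2 fold change past 4 in either direction, which were H2-Q2, H2-Q5, H2-Q6 and H2-Q7. Among all genes kept, 0.131% reached a log2 fold change of 4 with the higher level in WT (19 genes) and 0.0276% with the higher level in Qa-2- (4 genes). The median size of the log2 fold change of the other genes in the window was 0.27. The largest among these were -3.24 for Cyp21a1, -2.55 for A930015D03Rik, -2.45 for Cfb, 2.08 for C2 and 2.05 for Gm11131. H2-Q10 lies 30.9 kb after the start of H2-Q7, and H2-T23 and H2-T22 lie 594 and 604 kb after it.

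**Figure D3:**
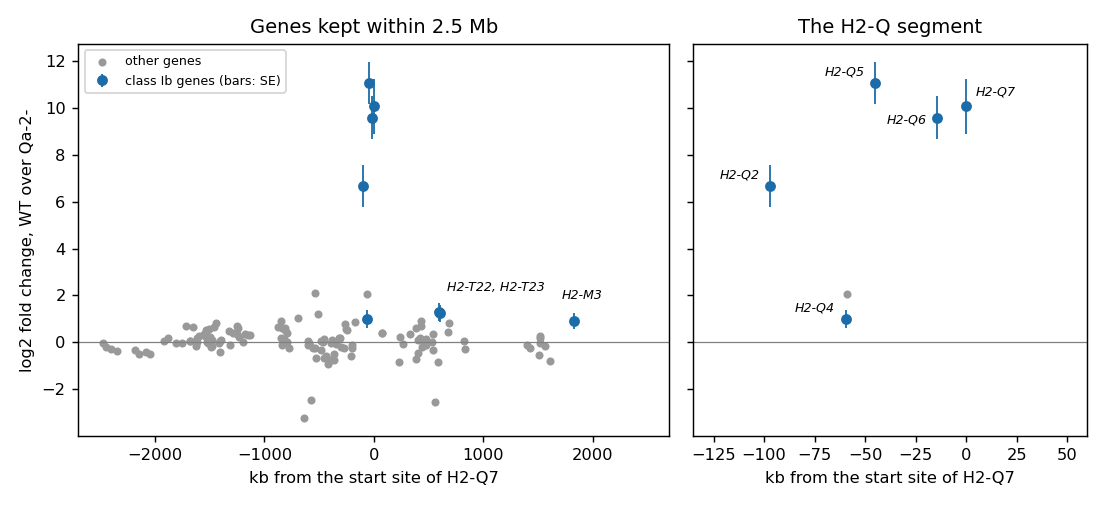
Log2 fold change (WT over Qa-2-) against distance in kb from the start of H2-Q7 for the 142 genes kept within 2.5 Mb (left) and for the H2-Q segment (right), with standard errors as bars on the class Ib genes. H2-Q2, H2-Q5, H2-Q6 and H2-Q7 lie between 6.67 and 11.06, H2-Q4 among them lies at 0.996, and all others lie within 4 of 0.

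The variation between the WT uteri was itself uneven over the genes. WT replicate 1 was above WT replicate 2 by 4.75 times for H2-Q7, 3.31 times for H2-Q6, 2.11 times for H2-T22, 1.91 times for H2-T23, 1.87 times for H2-Q4, 1.74 times for H2-Q5, 1.68 times for H2-M3 and 1.53 times for H2-Q2. The same ratio was 1.43 for Tap1, a subunit of the peptide transporter, and 1.26 for Nlrc5, the class I transactivator. H2-Q6 and H2-Q7 thus had larger ratios than H2-K1, H2-D1 and the other class Ib genes above the filter, with the same genotype in both uteri.

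Relative to B2m, the light chain shared by all of these molecules, the genes counted in both groups were close together. H2-T22 had 100 and 106 counts per 1000 counts of B2m in WT and 110 and 106 in Qa-2-. H2-T23 had 137 and 160 in WT and 121 and 173 in Qa-2-, and H2-Q4 had 97.8 and 117 in WT and 106 and 153 in Qa-2-. H2-M3 had 13.2 and 17.6 in WT and 17.2 and 21.8 in Qa-2-. On this scale the groups overlapped for H2-T23, H2-Q4 and H2-M3, and for H2-T22 the Qa-2- uteri were both above by a small margin. The sum of H2-Q6 and H2-Q7 was 201 and 111 in WT against 0.551 and 0.361 in Qa-2-, so that these genes stayed apart. B2m itself was 2.23 times higher in WT replicate 1 than in WT replicate 2, and a ratio to such a gene shows unequal change only.

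**Figure D4:**
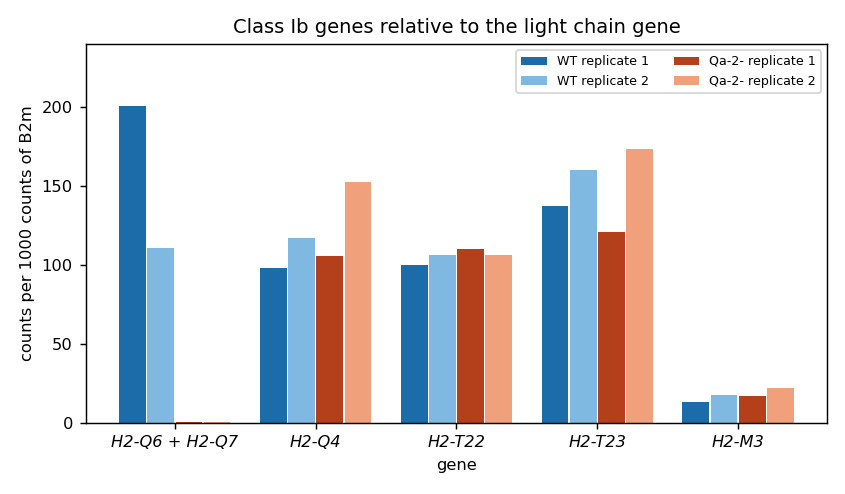
Counts per 1000 counts of B2m (y axis, from 0) for H2-Q6 plus H2-Q7 and for H2-Q4, H2-T22, H2-T23 and H2-M3, 1 bar per uterus. The 4 bars of H2-T22 lie between 100 and 110, whereas H2-Q6 plus H2-Q7 has 201 and 111 in WT and under 1 in Qa-2-.

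Relative to the classical heavy chains, H2-Q6 and H2-Q7 together had 61.1 and 39.3 counts per 1000 of H2-K1 plus H2-D1 in WT and 0.139 and 0.0762 in Qa-2-. H2-T23 had 41.9 and 57.0 in WT and 30.5 and 36.6 in Qa-2-, H2-T22 had 30.5 and 37.7 against 27.9 and 22.4, H2-Q4 had 29.8 and 41.5 against 26.8 and 32.2, and H2-M3 had 4.03 and 6.25 against 4.34 and 4.60. The groups thus overlapped for H2-Q4 and H2-M3 and not for H2-T22 and H2-T23. The share of all genes that separate on such ratios was not computed. All 10 genes together took 14.7% and 15.9% of the counts on class Ib genes, H2-K1 and H2-D1 in WT, and 8.29% and 8.80% in Qa-2-.

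The rest of the class I pathway was described by lists of 64 genes, of which 35 were kept and tested. With edgeR, 0 of the 35 had an adjusted p under 0.05 and 2 had an unadjusted p under 0.05, B2m and Fcgrt, both with the higher level in WT, where 8.09% of all genes kept passed in that direction and 7.09% in the other. DESeq2 called the same 2 (adjusted p = 0.0256 and 0.0187), against 2.79% and 2.04% of all genes. The unadjusted count is no larger than the share over all genes. The classical heavy chains H2-K1 and H2-D1 had log2 fold changes of 0.83 (SE 0.53) and 0.86 (SE 0.51), with overlapping groups, since WT replicate 2 had 23565 counts of H2-K1 against 26730 in Qa-2- replicate 2. Without WT replicate 1 the values were -0.087 and 0.010. Of 14 genes for the light chain, peptide loading and proteasome, all were kept and 1 had an unadjusted p under 0.05, against the 8.09% in that direction over all genes. This was B2m, with 52478 and 22065 counts in WT and 12705 and 13848 in Qa-2- (log2 fold change 1.33, SE 0.43, edgeR adjusted p = 0.294). Leaving out WT replicate 1 gave 0.61 and leaving out WT replicate 2 gave 1.79. The immunoproteasome subunit Psmb9 had a log2 fold change of 0.69, and the smallest values were 0.0038 for Tapbpl, a peptide editor, and 0.057 for Canx, a chaperone; the sign of both turned with library totals as the scaling. The median of the list was 0.21, against 0.012 for all genes kept.

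Of 9 class I regulators 8 were kept, and none had an unadjusted p under 0.05. Nlrc5 and Rfxap, a subunit of the factor that binds the X box, had log2 fold changes of 0.48 and 0.22, and Rfx5, another subunit of that factor, and Ifngr2, an interferon gamma receptor chain, had -0.34 and -0.27. Ifng itself was under the filter, with 11 and 11 counts in WT and 3 and 1 in Qa-2-. The median of the list was 0.12. Of the 9 receptors and coreceptors, 2 were kept, Klrk1 (log2 fold change -0.75, SE 0.49) and Pirb (0.50, SE 0.42, and -0.090 without WT replicate 2), and 1, Klrc3, was at 0 in all libraries. The value of Klrk1 was -1.13 when Qa-2- replicate 1 was left out and -0.25 when Qa-2- replicate 2 was. Klrd1 and Klrc1, which encode the CD94 and NKG2A chains that bind Qa-1, had 35, 23, 30 and 58 counts and 14, 3, 9 and 19 counts in WT replicates 1 and 2 and Qa-2- replicates 1 and 2 and were under the filter.

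Among 12 class I-like genes outside the H2 complex, 7 were kept and 1 had an unadjusted p under 0.05, with the same 8.09% over all genes. It was Fcgrt, the neonatal Fc receptor, with 9626 and 10227 counts in WT and 5639 and 4768 in Qa-2- (log2 fold change 0.79, SE 0.19, edgeR adjusted p = 0.255). Procr, the endothelial protein C receptor, and Cd1d1, which presents lipids, had log2 fold changes of 0.92 and 0.88, which were 0.28 and 0.40 without WT replicate 1, and Mill2 and Hfe, a regulator of iron uptake, had 0.29 and 0.11. Of the 18 other loci with a numbered H2-Q, H2-T or H2-M symbol, counting H2-Bl and not the pseudogene H2-T-ps, 9 were at 0 in all libraries and 2 were kept. H2-T10, the relative of H2-T22, had 253 and 175 counts in WT and 90 and 130 in Qa-2- (log2 fold change 0.81, SE 0.35), and H2-T24 had 161 and 258 against 418 and 274 (log2 fold change -0.85, SE 0.37).

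**Figure D5:**
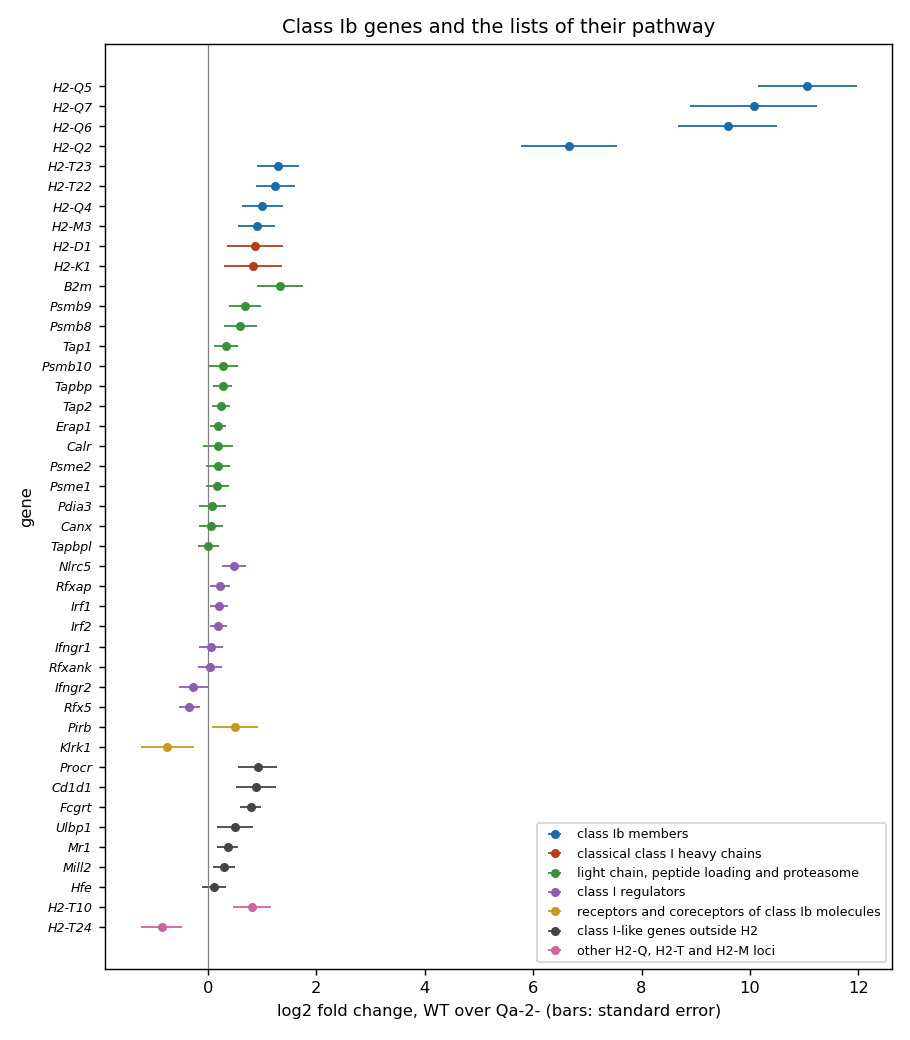
Log2 fold change (WT over Qa-2-, bars are standard errors) of each gene kept, coloured by list. H2-Q2, H2-Q5, H2-Q6 and H2-Q7 lie at 6.67 or more, and the other genes shown lie between -0.85 and 1.33.

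Genes were compared by the distance between centred log2 CPM profiles over the 4 libraries (root mean square), leaving out the class Ib genes described here. Among the remaining genes, those nearest to H2-Q7 were Gm43305 (1.65), Gm21451 (1.95), Gm16867 (2.46), Nkain4 (2.60) and Lrrn4 (2.66). Gm43305, on chromosome 14, had 466 and 597 counts in WT and 5 and 3 in Qa-2-, so that it had a large contrast without the difference between the WT uteri. Much nearer profiles were found for H2-T23, again outside the class Ib genes, namely Tnfrsf26 (0.059), Ly6d (0.10), BB123696 (0.11), Bc1 (0.16) and Serpina3n (0.17). Tnfrsf26 had 282 and 142 counts in WT and 54 and 90 in Qa-2-.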

How the data were processed

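Whole uteri of 2 WT and 2 Qa-2- mice at E18.5 were snap-frozen, RNA was isolated from pieces, and poly(A) libraries that mark strand were sequenced in read pairs. The values deposited by the authors are raw counts of read pairs per gene, made, per the file headers, with featureCounts 2.0.0 (exons, reverse strand, both ends mapped, mapping quality of at least 3), and the authors also deposited the exon length of each gene. The submitters' processing notes name STAR 2.7.3a, Subread and GRCm38.p6. Pairs with several positions were not counted, which lowers counts of near-identical genes, and reads of other alleles were aligned to the C57BL/6J reference.

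Identifiers were matched to GENCODE M21 (55240 of 55421). The filter was 1 CPM in 2 or more samples. TMM factors and the quasi-likelihood test (glmQLFit, then glmQLFTest, default settings) came from edgeR 4.0.16 in R 4.3.3, WT over Qa-2-, with Benjamini-Hochberg adjustment over all 14492 genes. The standard error is the log2 fold change divided by the square root of F. A simulation of this size checked the code only, with changes of fixed sizes and the dispersions fitted to these data. In it the fit recovered 186 of 200 changed genes, none in the wrong direction. It does not give the power here, where the same fit called 0 of 14492 genes. Alternatives were DESeq2 1.42.0, other scalings, filters and fits, a replicate block and leaving out each library. The libraries of a group were checked and differed by far more than sampling noise (chi-square per gene of 141 in WT and 84.6 in Qa-2-). Labels give each library as 1 replicate, and p-values measure the spread between these samples, which may be technical. Shared stretches were searched in 141767 transcripts, without the genome and leaving out genes that overlap the same locus.

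One gene of the lists is not reported here and was left out of them. The members, lists and tests were chosen with earlier results of these data known. Named genes are all members and, in each list, the 2 genes with the highest and the 2 with the lowest log2 fold change. The 5 nearest profiles to H2-Q7 and to H2-T23 outside the members are named too. Fcgrt, Ifng, Klrd1, Klrc1, Klrc3, Tap1, Cyp21a1, Cfb, C2, the marker genes and the antisense genes were added after their values were seen.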

Additional observations from a re-analysis of the deposited data

How the results depend on the processing

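With 2 libraries per group the adjusted p-values rest on few residual degrees of freedom. The number of class Ib genes past the threshold, 0 with edgeR, was 6 with DESeq2, 4 without a filter and between 0 and 5 when each library was left out. Leaving out WT replicate 1 gave 2 (H2-Q6 and H2-Q7) and WT replicate 2 gave 5, with H2-Q2, H2-Q5 and H2-T22 in addition, and the lone WT library is then assumed to vary like the Qa-2- libraries. Over all genes kept, DESeq2 called 700, the fit without WT replicate 1 called 4, the fit without WT replicate 2 called 93, and edgeR without a filter 61 of 28242. The cause of these differences was not tested. Summed H2-Q6 and H2-Q7 passed the threshold with DESeq2 (9.90), without a filter (9.90) and without either WT library, and its log2 fold change lay between 8.52 and 10.56 over the left-out libraries. The number of pathway list genes past the threshold was 2 with DESeq2. A minimum of 10 counts in every sample leaves H2-Q2, H2-Q5, H2-Q6 and H2-Q7 untested.

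With a replicate block in edgeR 2 of all 14492 genes passed, both class Ib genes that share sequence, H2-Q6 (adjusted p = 0.0469) and H2-Q7 (0.0362). Their sum did not pass (log2 fold change 9.71, edgeR adjusted p = 0.100). Same-numbered libraries did not deviate together (correlation -0.37). With 2 libraries per group such a correlation cannot decide whether the numbers pair the mice. The crossed pairing, chosen after seeing the data, called 0.

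All 8 class Ib genes tested kept their direction under every alternative that tested them. The sign turned for Tapbpl with DESeq2 (-0.0023) and with library totals (-0.093), and for Canx with library totals (-0.037). Over the left-out libraries the log2 fold change lay between -0.087 and 1.37 for H2-K1, -0.11 and 0.13 for Tapbpl, -0.16 and 0.22 for Canx, -0.57 and 0.10 for Ifngr2, -0.090 and 0.96 for Pirb, and -0.11 and 0.36 for Hfe. Levels near 3 counts are limited by depth.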
